A study of Mus musculus with 8 samples.

Results

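Messenger RNA levels are described here for 39 genes of S phase and DNA replication in haematopoietic stem cells (HSCs) that had lost Nynrin and in controls. The members were named by symbol from textbook roles, with earlier results of these data known. All 39 of 39 were found among the 55401 genes of the count table and passed the filter on low counts. HSCs were sorted by flow cytometry from the marrow of C57BL/6 mice at an age of 8 weeks. The protocol gives about 3000 cells sorted, and the series text also names 500 cells, so the number behind each library is uncertain. In the 4 Nynrin CKO libraries both Nynrin alleles were floxed (Nynrin fl/fl) and the mice carried Tie2-Cre, a Cre recombinase under a promoter active in endothelium and blood cells. The 4 control libraries came from Nynrin fl/fl mice without Cre and are labelled wild type, so Cre and Nynrin loss cannot be told apart. The labels do not say whether the libraries of a group come from different mice, so p-values reflect library-to-library spread, some of which may be technical.

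Replication starts from origins that are prepared in G1. The origin recognition complex, Cdc6 and Cdt1 load the ring-shaped MCM2-7 helicase, geminin (Gmnn) blocks reloading by binding Cdt1, and cyclin E with its kinase and the E2F transcription factors drive entry into S phase. Cdc45 and the GINS complex then turn MCM2-7 into the active helicase, after which primase, the polymerases, the sliding clamp PCNA with its loader RFC, and the single-strand binder RPA copy the DNA. Adult HSCs are mostly quiescent and keep this machinery low until they enter the cycle. In bulk RNA, fewer cells in cycle and less RNA per cycling cell cannot be told apart.

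The promoters of 31 of the 39 genes were matched by symbol in RefSeq's table for GRCm38.p6, the build also called mm10. Ccne2, Gmnn, Mcm4, Gins1, Gins2, Gins4, Rfc2 and Pole were not in it. Each entry spans 250 bases before to 50 bases after a gene's start. E2F-type motifs were searched on both strands as TTCCCGC and as TTGGCGC, and likewise as TTCGCGC and as TTGCCGC, and matches that overlap each other were counted as 1 stretch. Such a match lay in at least 1 entry of 21 of 31 genes (67.7%), against 10.9% of the 27025 genes of the table, and 8 (25.8%) held more than 1 stretch in an entry, against 1.3%. The median GC content was 60.2% for the members and 52.8% for all genes of the table, and its part in these shares was not tested. CCAAT, on either strand, lay in 21 of 31 (67.7%), against 41.1%. The 150 bases before the start are shown for the 3 genes of the promoter table that passed the test below (Ccne1, Gins3 and Rrm2), for Mcm6, the member with the highest counts, and for Pola1 and Rrm1, whose levels divided the Nynrin CKO libraries. Capitals mark E2F-type matches and each sequence runs 5′ to 3′ along its gene. They lie at chr7:38107491-38107640 on the minus strand (Ccne1), chr8:95633409-95633558 on the plus strand (Gins3), chr12:24708104-24708253 on the plus strand (Rrm2), chr1:128359706-128359855 on the minus strand (Mcm6), chrX:93632156-93632305 on the minus strand (Pola1) and chr7:102441545-102441694 on the plus strand (Rrm1).
Ccne1: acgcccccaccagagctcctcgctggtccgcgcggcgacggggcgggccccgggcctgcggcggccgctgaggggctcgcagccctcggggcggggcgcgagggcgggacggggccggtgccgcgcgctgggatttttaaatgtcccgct
Gins3: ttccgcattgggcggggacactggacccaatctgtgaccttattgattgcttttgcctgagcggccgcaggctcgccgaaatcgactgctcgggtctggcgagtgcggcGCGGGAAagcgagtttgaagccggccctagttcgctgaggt
Rrm2: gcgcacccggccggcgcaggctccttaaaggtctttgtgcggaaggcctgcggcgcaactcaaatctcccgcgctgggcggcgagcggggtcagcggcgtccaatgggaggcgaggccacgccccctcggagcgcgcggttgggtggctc
Mcm6: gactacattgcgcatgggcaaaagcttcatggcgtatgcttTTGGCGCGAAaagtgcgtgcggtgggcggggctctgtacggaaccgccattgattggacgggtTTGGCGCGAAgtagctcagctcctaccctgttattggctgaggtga
Pola1: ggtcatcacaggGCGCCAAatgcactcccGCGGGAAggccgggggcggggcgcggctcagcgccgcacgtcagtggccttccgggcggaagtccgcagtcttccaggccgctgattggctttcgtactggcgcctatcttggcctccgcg
Rrm1: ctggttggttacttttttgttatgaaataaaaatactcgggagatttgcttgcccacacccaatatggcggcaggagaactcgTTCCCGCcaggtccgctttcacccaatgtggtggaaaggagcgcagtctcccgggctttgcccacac

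Mcm6 carried 2 separate stretches in this window, each holding a pair of overlapping matches, and Pola1 carried 2 single matches. Gins3 had a match that began 41 bases before its start and Rrm1 one that began 67 bases before. Rrm2 had its match 235 bases before the start, outside the sequence shown, and Ccne1 had none in its 300 bases. A match describes letters and not binding. The median log2 fold change (Nynrin CKO over control) was 0.25 for the 21 genes with a match and 0.39 for the 10 without.

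Total counts per library ran from 36942835 to 56437299. Nynrin itself was at 30.1 to 47.5 CPM (counts per 1000000, scaled by TMM factors) in controls and 8.22 to 12.7 CPM in Nynrin CKO, with no overlap (log2 fold change -1.85, standard error 0.22, edgeR adjusted p = 0.0345). HSC markers were present in every library, among them Kit at 1305 to 2361 CPM and Procr at 34.6 to 64.5 CPM, both named after their values were seen. Both are among the 4 of 12 HSC markers with a log2 fold change (Nynrin CKO over control) above 0, and the other 8 were below 0. Some libraries stood apart from their group. Control 4 and Nynrin CKO 3 and 4 had 182 to 237 CPM summed on 2001 olfactory and vomeronasal receptor records, genes of sensory neurons, against 852 to 1363 CPM in the other 5, and these are called the sets with few and with more receptor reads. The Nynrin CKO libraries formed close pairs. Over genes with a mean of at least 1 CPM the biological coefficient of variation was 0.179 for 1 and 2 and 0.177 for 3 and 4, but 0.484 to 0.488 across these pairs, and for any 2 controls it was 0.238 to 0.439. Xist, the RNA of the inactive X in females, was at 4176 and 4280 CPM in controls 3 and 4 and at 5.83 to 11.4 CPM in the other 6.

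The comparison asked how replication genes differ where Nynrin was deleted. Most of the 39 genes had a higher mean in Nynrin CKO, and few passed the test singly. Ccne1, Gins3, Rfc2 and Rrm2 rose and no member fell (edgeR quasi-likelihood F-test, Benjamini-Hochberg adjusted p threshold of 0.05 over all 27573 genes tested). These 4 of 39 (10.3%) compare with 2.22% of all genes tested that were called higher, 3.64% among genes with a mean of at least 1 CPM, and 0.588% called lower (0.917% with at least 1 CPM). At an unadjusted p under 0.05, 16 of 39 were higher (41.0%, against 13.2% of all tested genes and 21.4% of those with at least 1 CPM) and 0 were lower (against 5.78% and 7.99%), and DESeq2 and limma-voom also called 0 lower. In 12 of 39 genes (30.8%) all 4 Nynrin CKO libraries lay above all 4 controls, against 9.52% of all tested genes and 15.3% of those with at least 1 CPM. In none did all 4 lie below, against 4.83% and 5.78%. The median log2 fold change of the members was 0.33, beside -0.09 over all tested genes and 0.09 over those with at least 1 CPM, and 34 of 39 values were above 0 (87.2%, against 44.5% and 57.1%).

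The scale mattered for these counts. With RLE factors, upper-quartile factors or total counts in place of TMM, no member passed in either direction by edgeR, 12, 12 and 6 members were higher at an unadjusted p under 0.05, and 0, 1 and 5 were lower. Their median was 0.28, 0.23 and 0.056, and 31, 30 and 22 of 39 values were above 0. The median of all tested genes moved with it, to -0.14, -0.20 and -0.34, so the members lay 0.42, 0.43 and 0.40 above it, and 0.42 above it with TMM. As a share of unscaled counts the members took 0.476% to 0.625% in controls and 0.510% to 0.552% in Nynrin CKO, ranges that overlap. The TMM factors were 0.80 and 0.81 in Nynrin CKO 3 and 4 and 1.02 to 1.16 in the other 6 libraries. Over all genes 611 were called higher and 162 lower with TMM, 13 and 22 with RLE, 225 and 251 with upper-quartile factors and 59 and 318 with total counts.

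**Figure D1:**
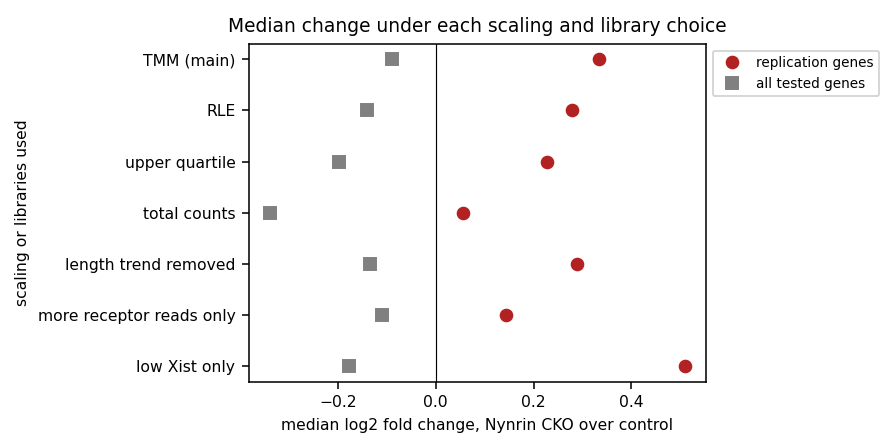
Median log2 fold change (Nynrin CKO over control, x axis) of the 39 replication genes (circles) and of all tested genes (squares) under each scaling or choice of libraries (y axis). The circles lie at 0.056 with total counts and at 0.51 with the libraries of low Xist, and in each row they lie right of the squares.

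The calls also turned on single libraries, over all genes as well as in the members. Leaving out control 4 gave 10 members called higher (Ccne1, Gins3, Rfc2, Rrm2, Orc6, Prim1, Rfc4, Rfc5, Rpa2 and Rpa3), and leaving out any of controls 1, 2 and 3 or of Nynrin CKO 1, 2, 3 and 4 gave 0 by edgeR, with 12 to 20 higher at an unadjusted p under 0.05. Over all genes 1129 were called higher without control 4 and 1 to 6 without any other library. In the latter fits 3544 to 5874 genes had an unadjusted edgeR p under 0.05, in either direction. Over the 8 fits the median of the members stayed between 0.26 and 0.40. With a term for the library set 9 members were called higher, with DESeq2 10, and with the Nynrin CKO pairs summed to 1 library each 0 (8 at an unadjusted p under 0.05). Of all genes the same fits called 1221, 1586 and 0 higher. The controls with high Xist stood above the other controls in the members: relative to the mean of the controls, the median member was at -0.12 in controls 1 and 2, 0.15 in control 3 and 0.12 in control 4 on the log2 CPM scale, and at 0.18, 0.08, 0.55 and 0.51 in Nynrin CKO 1 to 4. Within the 6 libraries of low Xist the median log2 fold change was 0.51, with 0 members called by edgeR and 19 higher at an unadjusted p under 0.05.

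**Figure D2:**
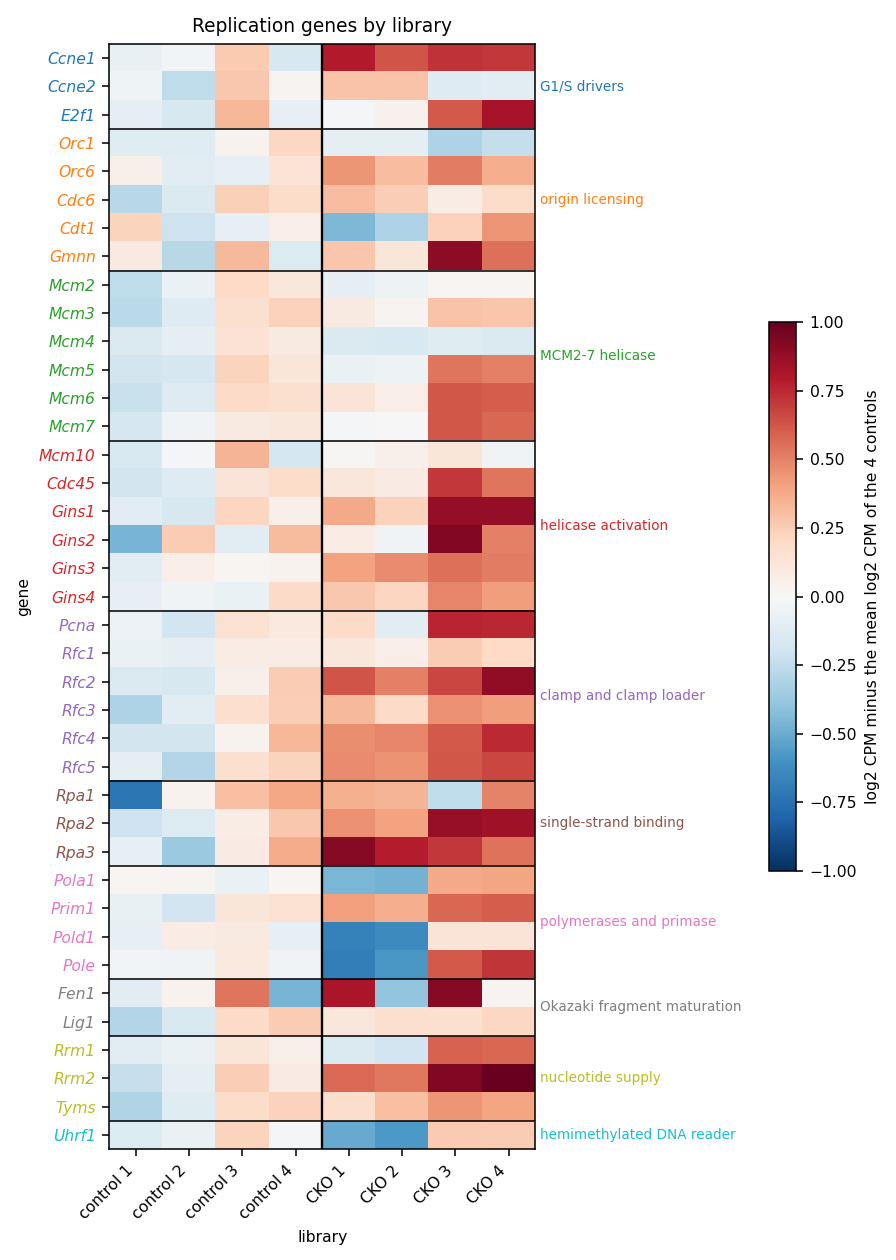
Level of each of the 39 genes (rows, coloured by role) in each library (columns), as log2 CPM minus the mean log2 CPM of the 4 controls; CKO stands for Nynrin CKO and the colour scale ends at -1 and 1. Ccne1 is red in all 4 Nynrin CKO libraries, and Pola1, Pold1, Pole and Uhrf1 are blue in Nynrin CKO 1 and 2 and red in 3 and 4.

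Among the drivers of S phase entry, Ccne1 rose. It encodes cyclin E1, the activator of CDK2 at the G1/S transition (ENSMUSG00000002068, chromosome 7, 38097984 to 38107534, minus strand). It was at 11.2, 11.5, 14.1 and 10.5 CPM in controls 1 to 4 and at 20.4, 18.2, 19.4 and 19.3 CPM in Nynrin CKO 1 to 4. The groups did not overlap, and the Nynrin CKO libraries lay within a narrow band. The mean went from 11.9 ± 1.58 to 19.3 ± 0.91 CPM (SD, n = 4 each), a ratio of 1.63, with a log2 fold change of 0.70, a standard error of 0.13 and an edgeR adjusted p of 0.0408. The log2 fold change was 0.65 among libraries with more receptor reads and 0.88 among those with few. It was 0.43 to 0.65 with the other scaling factors, which gave adjusted p from 0.0689 to 0.269, and removal of a library other than control 4 gave 0.0580 to 0.135.

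Its relative Ccne2, cyclin E2, did not pass and was below 0 with upper-quartile factors and total counts. It shares exon sequence with Ints8 on the opposite strand, which holds 31.5% of its counts. Ccne2 was at 33.0, 28.4, 41.0 and 34.5 CPM in controls and 41.4, 41.3, 31.0 and 31.4 CPM in Nynrin CKO, where the last pair sat within the control range (log2 fold change 0.08, standard error 0.15, edgeR adjusted p = 0.840). E2f1, the transcription factor whose targets include many genes of this set, was at 7.32, 6.95, 9.80 and 7.37 CPM in controls and 7.69, 8.03, 11.9 and 13.8 CPM in Nynrin CKO. Only Nynrin CKO 3 and 4 lay above all controls (log2 fold change 0.40, standard error 0.23, adjusted p = 0.410).

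Of 5 origin licensing genes 4 had values above 0 (3 with RLE or upper-quartile factors and 2 with total counts), and none passed. Orc6, the smallest subunit of the origin recognition complex, was at 39.8, 35.6, 36.1 and 42.0 CPM in controls and 51.9, 47.4, 54.6 and 49.3 CPM in Nynrin CKO, with no overlap (log2 fold change 0.40, standard error 0.10, edgeR adjusted p = 0.0624). Gmnn, the inhibitor of licensing, was at 38.9, 30.3, 45.8 and 33.4 CPM in controls and 44.3, 39.9, 68.1 and 53.5 CPM in Nynrin CKO (0.47, standard error 0.19, adjusted p = 0.214). The MCM loader Cdc6 was at 39.3, 43.2, 56.2 and 54.3 CPM in controls and 59.2, 56.6, 50.3 and 54.1 CPM in Nynrin CKO, so that the groups overlapped (0.19, adjusted p = 0.532). Its partner Cdt1 had a log2 fold change of 0.02 and Orc1, the largest subunit, one of -0.19 (adjusted p = 0.980 and 0.543). Cdt1 was below 0 with the 3 other scalings. Orc1 and Orc6 share exon sequence with records on the opposite strand, Gm12743 and Vps35, which hold 34.1% and 354% of their own counts, so reads could fall on either record if strand was not used in counting.

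MCM2-7 showed no called change in any of its 6 subunits, and 4 of 6 values were above 0 (2 with total counts). Mcm6, the most abundant, was at 515, 548, 685 and 669 CPM in controls and 654, 629, 922 and 912 CPM in Nynrin CKO. Nynrin CKO 1 and 2 lay inside the control range and 3 and 4 above it (log2 fold change 0.37, standard error 0.17, edgeR adjusted p = 0.298). Mcm7 was at 329, 361, 392 and 399 CPM in controls and 367, 370, 567 and 550 CPM in Nynrin CKO, with the same division (0.32, standard error 0.17, adjusted p = 0.369). It shares exon sequence with Cops6 on the opposite strand, which holds 31.0% of its counts. The remaining 4 ran from -0.15 (Mcm4) through -0.04 (Mcm2) and 0.16 (Mcm3) to 0.25 (Mcm5), with adjusted p from 0.525 to 0.913. Mcm6 and Mcm7 were above 0, and Mcm2 and Mcm4 below it, with each of the 4 scalings. Mcm4 was at 201 to 205 CPM in the 4 Nynrin CKO libraries and 202 to 246 CPM in controls. Divided by the length of the longest transcript, control levels were 139 CPM per kilobase for Mcm6 and 125 for Mcm7, then 89.8 for Mcm3, and 65.9, 64.1 and 62.4 for Mcm5, Mcm2 and Mcm4, the last 3 within each other's spread over libraries.

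All 6 genes of helicase activation had values above 0 (5 with each other scaling, where Mcm10 was below), with a median log2 fold change of 0.38. Gins3, a subunit of the 4-part GINS complex, rose (ENSMUSG00000031669, chromosome 8, 95633453 to 95645060, plus strand). It was at 17.9, 20.3, 19.7 and 19.9 CPM in controls and 25.7, 27.0, 28.4 and 27.7 CPM in Nynrin CKO. The groups lay apart with little spread inside either. Its mean went from 19.4 ± 1.04 to 27.2 ± 1.14 CPM (SD, n = 4 each), with a log2 fold change of 0.48, a standard error of 0.10 and an edgeR adjusted p of 0.0453. Gins3 differed by 0.45 among libraries with more receptor reads and 0.50 among those with few. Removal of a library other than control 4 put its adjusted p at 0.0682 to 0.260 and the other scalings at 0.0852 to 0.472, and limma-voom did not call it.

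The other GINS subunits were above 0 without passing. Gins1 was at 16.5, 15.9, 20.7 and 18.4 CPM in controls and 23.2, 20.9, 32.7 and 32.8 CPM in Nynrin CKO, all above the controls (0.61, standard error 0.18, edgeR adjusted p = 0.0910). Gins2 was at 45.1, 74.3, 57.9 and 77.7 CPM in controls and 65.6, 60.8, 119 and 88.6 CPM in Nynrin CKO, with overlap (0.39, standard error 0.24, adjusted p = 0.456). Gins4 had a log2 fold change of 0.35 with the groups apart (adjusted p = 0.108). Cdc45, which completes the helicase, stood at 0.38 (adjusted p = 0.261). Mcm10, which helps to start it, stood at 0.02 (adjusted p = 0.956), with 19.7 to 28.3 CPM in controls and 21.8 to 24.3 CPM in Nynrin CKO. Per kilobase the control level of Gins4 was 33.7 CPM, that of Gins1 16.5, of Gins2 16.3 and of Gins3 7.72, so the subunit that rose had the lowest level of the 4. Gins2 and Cdc45 share exon sequence with Gse1 and Ufd1 on the opposite strand, which hold 156% and 139% of their own counts.

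All 6 genes of the clamp and its loader had values above 0 (5 with total counts, where Rfc1 was below), with a median log2 fold change of 0.49, and Rfc2, Rfc4 and Rfc5 lay apart between the groups. Rfc2, a small subunit of the loader, rose (ENSMUSG00000023104, chromosome 5, 134581366 to 134601805, plus strand). It was at 252, 249, 288 and 332 CPM in controls and 431, 395, 442 and 516 CPM in Nynrin CKO, where the lowest Nynrin CKO library exceeded the highest control. The mean went from 280.3 ± 38.998 to 445.8 ± 50.8 CPM (SD, n = 4 each), a ratio of 1.59 (0.67, standard error 0.14, edgeR adjusted p = 0.0442). Rfc2 differed by 0.65 among libraries with more receptor reads and 0.53 among those with few. Removal of a library other than control 4 put its adjusted p at 0.0567 to 0.262, and the other scalings at 0.0640 to 0.132.

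Rfc4 was at 38.9, 38.8, 45.2 and 55.5 CPM in controls and 61.0, 62.0, 67.6 and 74.1 CPM in Nynrin CKO (0.57, standard error 0.14, edgeR adjusted p = 0.0577). In this gene control 4 was the control nearest to the Nynrin CKO libraries. Rfc5 and Rfc3 stood at 0.54 (adjusted p = 0.0607) and 0.33 (adjusted p = 0.221), and Rfc1, the large subunit, at 0.16 (adjusted p = 0.419). Pcna, the clamp itself, was at 193 to 245 CPM in controls, at 252 and 206 CPM in Nynrin CKO 1 and 2 and at 374 and 372 CPM in 3 and 4 (0.44, standard error 0.20, adjusted p = 0.274). Nynrin CKO 1, 3 and 4 lay above all controls and Nynrin CKO 2 inside their range, as they did for Rfc1 and Rfc3. The processed pseudogene Pcna-ps2 had 52 to 185 counts per library, beside at least 8126 for Pcna. Rfc4 shares exon sequence with Eif4a2 on the opposite strand, which holds 391% of its counts.

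Within RPA, the trimer that coats single-stranded DNA, Rpa2 and Rpa3 lay apart between the groups and Rpa1, which was below 0 with total counts, did not. Rpa2 was at 97.5, 102, 118 and 136 CPM in controls and 155, 148, 205 and 202 CPM in Nynrin CKO (0.65, standard error 0.16, edgeR adjusted p = 0.0576). Rpa3, the smallest subunit, was at 14.6, 11.9, 16.3 and 19.9 CPM in controls and 28.9, 26.5, 25.1 and 22.4 CPM in Nynrin CKO (0.72, standard error 0.17, adjusted p = 0.0549). Both missed the threshold, and both passed when control 4 was left out (adjusted p = 0.0384 and 0.0269). Rpa1, the large subunit, was at 91.7, 155, 186 and 198 CPM in controls and 193, 191, 127 and 213 CPM in Nynrin CKO. Control 1 and Nynrin CKO 3 were low, and Nynrin CKO 3 and 4, close over most genes, differed here (0.20, standard error 0.25, adjusted p = 0.750).

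**Figure D3:**
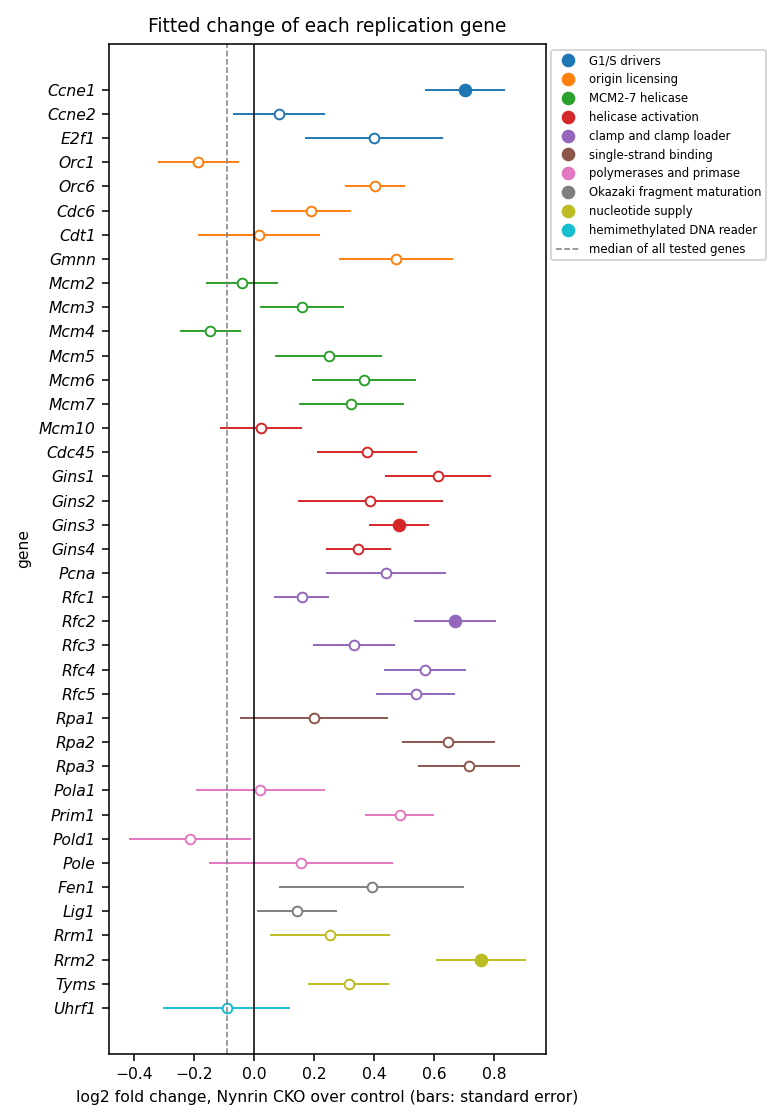
Log2 fold change of each of the 39 genes, Nynrin CKO over control (x axis), with bars of 1 standard error; genes (y axis) are coloured by role, filled points passed the adjusted p threshold and the dashed line is the median of all tested genes. The filled points are Ccne1 at 0.70, Gins3 at 0.48, Rfc2 at 0.67 and Rrm2 at 0.76, and 34 of 39 points lie right of 0.

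None of the 4 polymerase and primase genes passed, and 3 had values above 0 (2 with RLE or upper-quartile factors, 1 with total counts). Prim1, the catalytic primase subunit, was at 75.4, 69.6, 86.3 and 88.1 CPM in controls and 106, 102, 118 and 121 CPM in Nynrin CKO, with no overlap (0.49, standard error 0.11, edgeR adjusted p = 0.0536). The catalytic subunits of the 3 replicative polymerases instead divided the Nynrin CKO libraries. Pola1, of polymerase alpha, was at 252, 255, 238 and 253 CPM in controls, at 181 and 180 CPM in Nynrin CKO 1 and 2 and at 324 and 328 CPM in 3 and 4 (0.02, standard error 0.21, adjusted p = 0.976). Pold1, of polymerase delta, was at 165, 184, 186 and 165 CPM in controls and 109, 112, 191 and 191 CPM in Nynrin CKO (-0.21, standard error 0.20, adjusted p = 0.665). Pole, of polymerase epsilon, was at 96.5, 95.7, 105 and 95.7 CPM in controls and 60.9, 65.4, 150 and 162 CPM in Nynrin CKO (0.16, standard error 0.31, adjusted p = 0.854). For each of the 3, the controls lay close together, Nynrin CKO 1 and 2 below all of them and 3 and 4 above.

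The same division held for Rrm1, Uhrf1 and Cdt1, making 6 of 39 members (15.4%), against 1.89% of all tested genes and 2.81% of genes averaging at least 1 CPM. This pattern, and the naming of Pole, were chosen after the values were seen. The division was read on the TMM scale, with factors of 0.80 and 0.81 in Nynrin CKO 3 and 4 and 1.02 to 1.16 in the rest. The part above the controls depends on that scale: per total counts, Nynrin CKO 3 lay above all controls in none of the 6 genes, and Nynrin CKO 4 only in Pole. Per total counts Nynrin CKO 1 and 2 still lay below all controls in each of the 6. Uhrf1, which reads hemimethylated DNA behind the fork, was at 176, 186, 226 and 191 CPM in controls and 137, 131, 233 and 231 CPM in Nynrin CKO (-0.09, standard error 0.21, edgeR adjusted p = 0.879). The difference between the library sets in the effect of genotype was tested in a fit with 1 mean per group and set. It passed for Pole (log2 difference 1.35, adjusted p = 0.00312), Pola1 (0.82, adjusted p = 0.0113), Pold1 (0.90, adjusted p = 0.0115), Uhrf1 (0.83, adjusted p = 0.0340) and Rrm1 (0.67, adjusted p = 0.0341), as it did for 2184 of 27573 genes. Control 4 is alone in its cell of that fit and is assumed to vary like the others, and the close Nynrin CKO pairs count as separate libraries, so these p-values may be too small. When controls 1 to 3 and Nynrin CKO 1 and 2, the libraries with more receptor reads, were fitted alone, Rfc2, Rfc4, Rpa2 and Rpa3 were called higher and Pola1, Pold1, Pole and Uhrf1 lower. Calls thus went in both directions on 1 scale, as they did over all genes, with 1311 higher and 857 lower of 32419 tested. Nynrin CKO 1 and 2 are a close pair, so the p-values of this fit may be too small as well. Of the 6 genes that divided the Nynrin CKO libraries, the 5 in the promoter table each held an E2F-type match. So did 21 of 31 members with a promoter there (67.7%), and a link between match and division was not tested.

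**Figure D4:**
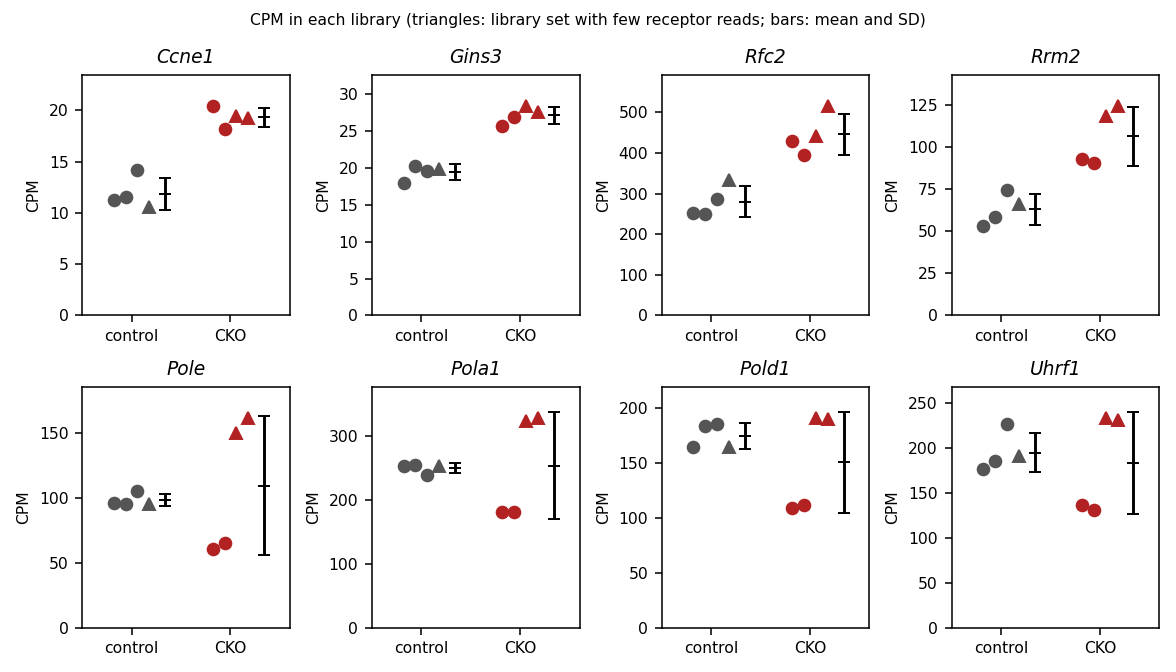
CPM (y axis, from 0) in each control and Nynrin CKO library (CKO) for the 4 members that passed the test (top row) and 4 that divided the Nynrin CKO libraries (bottom row); triangles mark the set with few receptor reads and bars give the mean and SD of 4 libraries. In the top row the groups lie apart, and in the bottom row Nynrin CKO 1 and 2 lie below all controls and 3 and 4 above.

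Of the enzymes that supply nucleotides, Rrm2 rose. It encodes the small subunit of ribonucleotide reductase, whose level limits the supply of deoxynucleotides in S phase (ENSMUSG00000020649, chromosome 12, 24708241 to 24714146, plus strand). It was at 53.4, 58.6, 74.3 and 66.2 CPM in controls and 92.9, 90.4, 119 and 125 CPM in Nynrin CKO. The groups lay apart, and Nynrin CKO 3 and 4 were above 1 and 2. The mean went from 63.1 ± 9.12 to 106.7 ± 17.5 CPM (SD, n = 4 each), a ratio of 1.69 and the largest log2 fold change of the 39 in the main analysis (0.76, standard error 0.15, edgeR adjusted p = 0.0431). Rrm2 differed by 0.56 among libraries with more receptor reads and 0.88 among those with few. Removal of a library other than control 4 put its adjusted p at 0.0559 to 0.183, and the other scalings at 0.0711 to 0.112.

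The large subunit, Rrm1, was at 341, 351, 400 and 384 CPM in controls and 333, 323, 555 and 549 CPM in Nynrin CKO (0.25, standard error 0.20, edgeR adjusted p = 0.586, and below 0 with total counts). Nynrin CKO 1 and 2 thus had an Rrm2 above all controls and an Rrm1 below them by a small margin. The log2 fold change of Rrm1 was -0.15 among libraries with more receptor reads. Tyms, thymidylate synthase, was at 59.3, 67.1, 82.9 and 85.5 CPM in controls and 82.3, 89.9, 99.1 and 95.6 CPM in Nynrin CKO, with controls 3 and 4 just above the lowest Nynrin CKO library (0.32, standard error 0.14, adjusted p = 0.246). Per kilobase, control levels were 67.4 CPM for Rrm1, 28.8 for Rrm2 and 19.0 for Tyms.

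Okazaki fragment maturation showed no called change, and of its 2 genes Lig1 was below 0 with total counts. Lig1, the ligase that seals the fragments, was at 68.0, 75.1, 95.2 and 99.3 CPM in controls and 90.1, 93.6, 93.4 and 96.0 CPM in Nynrin CKO, with all 4 Nynrin CKO libraries inside the control range (0.14, standard error 0.13, edgeR adjusted p = 0.654). The flap nuclease gene Fen1 was at 79.0, 87.2, 123 and 61.7 CPM in controls and 150, 64.7, 160 and 86.6 CPM in Nynrin CKO (0.39, standard error 0.31, adjusted p = 0.585). Fen1 was higher in Nynrin CKO 1 than in 2 and in 3 than in 4, although these pairs were close over most genes. Fen1 and Lig1 share exon sequence with Tmem258 and Zswim9 on the opposite strand, which hold 56.9% and 16.6% of their own counts. Among all 39, Pcna (146 CPM per kilobase in controls) and Mcm6 (139) had the highest levels and E2f1 (2.85), Mcm10 (4.63) and Orc1 (4.72) the lowest.

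Of 53 further replication genes, 3 rose and 1 fell, and the median log2 fold change was 0.20. Asf1a and Asf1b, histone chaperones that work at the fork, went from 47.1 ± 5.03 to 79.5 ± 2.62 CPM (0.75, edgeR adjusted p = 0.0345) and from 55.3 ± 4.21 to 86.3 ± 13.6 CPM (0.64, adjusted p = 0.0436; SD, n = 4 each). Orc5, of the origin recognition complex, rose by 0.42 (adjusted p = 0.0467). Dnmt1, the maintenance DNA methyltransferase that UHRF1 recruits, fell from 250.3 ± 10.5 to 169.0 ± 13.3 CPM (SD, n = 4 each; -0.57, adjusted p = 0.0394). It was at 255, 258, 254 and 235 CPM in controls and 183, 178, 156 and 160 CPM in Nynrin CKO, below every control in both pairs, whereas Uhrf1 was below them in 1 pair only. Asf1a shares exon sequence with Mcm9 on the opposite strand, which holds 110% of its counts.

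None of 27 genes of the E2F and RB family and the G1/S kinases passed by edgeR, with 4 higher and 0 lower at an unadjusted p under 0.05 (median 0.17). The smallest p were those of Cks1b, a CDK-binding subunit (0.78, edgeR adjusted p = 0.0640), and Ccnd2, cyclin D2 (0.36, adjusted p = 0.0819). Of 26 genes of G2 and mitosis, 3 rose and none fell, with 24 values above 0 and a median of 0.53. These were Cdca8, of the chromosomal passenger complex (0.97, adjusted p = 0.0408), Ccnb2, cyclin B2 (1.07, adjusted p = 0.0417), and Cdc20, an activator of the anaphase-promoting complex (0.83, adjusted p = 0.0496). Cdc20 and Cdca8 share exon sequence with Elovl1 and 9930104L06Rik on the opposite strand, which hold 89.2% and 40.3% of their own counts.

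Markers of other cells also differed between the libraries, some of them with the replication genes. Over the 39 genes the controls summed to 4376 to 5421 CPM, Nynrin CKO 1 and 2 to 5230 and 4990 CPM and Nynrin CKO 3 and 4 to 6850 and 6863 CPM. Of 12 markers of multipotent and myeloid progenitors, 12 were above 0 and Ms4a3 and Ctsg rose (edgeR adjusted p = 0.0457 and 0.0478). They summed to 1464 to 1984 CPM over the controls, to 1930 and 1980 CPM for Nynrin CKO 1 and 2, and to 6381 and 6355 CPM for 3 and 4. Mpo, a granule enzyme of myeloid progenitors named after its values were seen, ranged from 60.7 to 100.6 CPM over the controls. Its level was 164 and 159 CPM for Nynrin CKO 1 and 2 but 2829 and 2824 CPM for 3 and 4 (adjusted p = 0.0520). On the TMM scale the fitted mean of Nynrin CKO 3 and 4 was above that of 1 and 2 in 34 of 39 members, against 10563 of 27573 tested genes. The median log2 difference was 0.21 for the members and -0.25 for all tested genes. No such count was made for the 16789 genes with a mean of at least 1 CPM. In some of the 34, such as Ccne1, the single libraries of the pairs overlapped. As a share of unscaled counts the members took 0.536% and 0.510% in Nynrin CKO 1 and 2 and 0.551% and 0.552% in 3 and 4. Nynrin CKO 3 and 4 were also above 1 and 2 in the sum of these progenitor markers, whose part in the result was not tested.

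In Nynrin CKO 1 and 2 the sum of progenitor markers, with Cd34 as its largest part, lay inside the control range, but 6 of the 12 were above every control in both (Mpo, Elane, Ctsg, Ms4a3, Calr and Irf8). Among libraries with more receptor reads 11 of 12 were above 0, with a median log2 fold change of 0.50. Of 11 erythroid markers, 10 were above 0 and Klf1, Car1 and Car2 rose, with sums of 1154 to 1480 CPM in controls. Their sums were 2528 and 2366.5 CPM in Nynrin CKO 1 and 2 and 2206 and 2157 CPM in 3 and 4. Within Nynrin CKO they thus went the other way from the replication genes. Of 12 lymphoid markers, 8 were above 0 and Nkg7 rose. The lymphoid list summed to 88.4 to 124 CPM in controls and 191 to 392 CPM in Nynrin CKO. All of 11 neutrophil markers (list sums of 14.8 to 137 CPM in controls against 145 to 364 CPM in Nynrin CKO) were above 0. So were all of 10 monocyte and macrophage markers (list sums of 318 to 386 CPM against 454 to 777 CPM). In each list 2 were called higher, Cxcr2 and Chil3 in the first and Ly6c2 and Mpeg1 in the second. For endothelial markers 6 of 7 were above 0 and none passed by edgeR, 1 being higher (Plvap) and 1 lower (Tie1) at an unadjusted p under 0.05. The endothelial list summed to 195 to 269 CPM in controls and 208 to 308 CPM in Nynrin CKO. The part of these lists in the members' result was not tested. Of 12 HSC markers 8 were below 0 and none passed by edgeR, 4 being lower at an unadjusted p under 0.05, with Mecom, a transcription factor of HSC self-renewal (-0.98, adjusted p = 0.0746), and Fgd5 (-0.75, adjusted p = 0.108) nearest. The HSC sums overlapped, at 3247 to 4085 CPM in controls and 3648 to 4146 CPM in Nynrin CKO. No marker in these lists was at 0 in all libraries, and Cebpe, Cd79a and Cd8a were at 0 in at least 1.

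**Figure D5:**
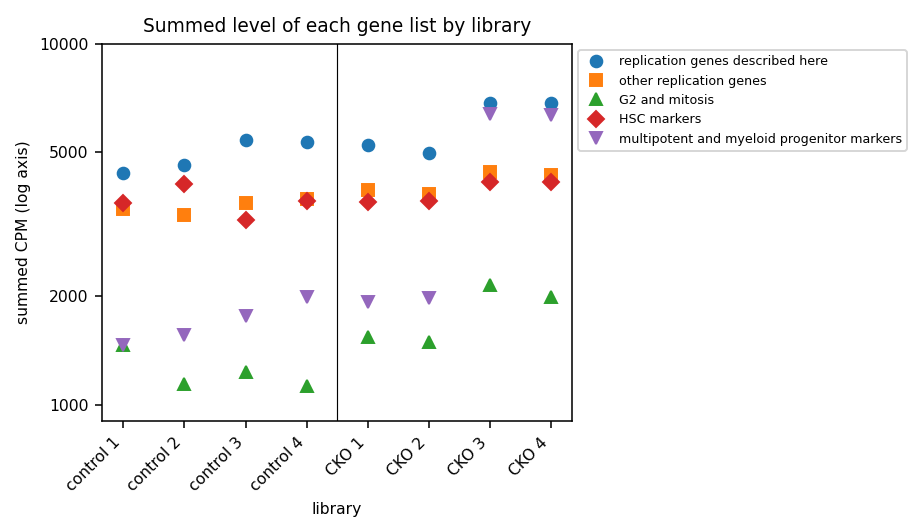
Summed CPM (y axis, log scale) of 5 gene lists in each library (x axis; CKO stands for Nynrin CKO). The 39 replication genes reach 6850 and 6863 in Nynrin CKO 3 and 4, where the progenitor markers reach 6381 and 6355, against 1464 to 1984 in controls.

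Transcript length moved with the changes over the whole table, so the members were set beside genes of like length. Their longest transcripts had a median of 3128 bases, and that of genes with a mean of at least 1 CPM was 3140. In 5 classes of about equal size, from the shortest (up to 1665 bases) to the longest, such genes had medians of 0.38, 0.23, 0.08, -0.08 and -0.17. The 7, 6, 14, 8 and 4 members in these classes had medians of 0.47, 0.57, 0.11, 0.34 and 0.18. The median of the members thus lay above that of its length class in each of the 5, by least in the middle class. That class held all 5 members with values below 0 (Pold1, Orc1, Mcm4, Uhrf1 and Mcm2). After removal of a length trend per library the median of the members was 0.29, with 0 called by edgeR and 7 higher at an unadjusted p under 0.05.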

How the data were processed

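Per the file headers, the table the authors deposited holds raw counts, 1 column for each library. The submitters' processing notes name mm10. The aligner, counter and strand setting were not given in the sources used here. Records overlapping a named gene were found with GENCODE M21 exons. The main test used edgeR 4.0.16 (R 4.3.3): after filterByExpr (27573 genes) and TMM scaling, a robust quasi-likelihood F-test compared 4 Nynrin CKO with 4 control libraries, with Benjamini-Hochberg adjustment over all genes. CPM use the same factors and means are ± SD. In libraries of 36942835 to 56437299 counts, the least abundant member, E2f1, had 292 to 575 counts. In simulated counts (24102 genes kept) the fit called 34 of 100 genes changed 2-fold, 68 of 100 changed 4-fold and 2 unchanged genes.

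The members and lists were chosen with earlier results of these data known. Values in every library were given for members past the threshold and, per role, for the 2 with the smallest p and the most abundant. From each other list up to 4 genes past the threshold, or else the 2 with the smallest p, were to be named. Alternatives were other scaling factors and filters, DESeq2 1.42.0, limma-voom (limma 3.58.1), a fit without robust estimation, a replicate term, a term for library set (drawn at 300 CPM of receptor reads), summed Nynrin CKO pairs, removal of a length trend, and removal of each library. Fits of the libraries with more receptor reads and of those with low Xist (under 100 CPM) were added after seeing the data.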

Additional observations from a re-analysis of the deposited data

Results flagged for a closer look

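In 4 of 78 groups of 4 libraries, 1 library lay far from the other 3, and chance alone flags about 1 group in 20 (5%). E2f1 was at 9.80 CPM in control 3, against 6.95 to 7.37 CPM in the other controls. Pole was at 105 CPM in control 3, against 95.7 to 96.5 CPM. Pola1 was at 238 CPM in control 3, against 252 to 255 CPM. Gins4 was at 51.6 CPM in control 4, against 42.7 to 44.1 CPM.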

How the results depend on the processing

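Each member's log2 fold change was recomputed under 20 other settings and 2 more chosen after seeing the data, 858 values in all, of which 770 kept their side of the threshold, 64 lost a call and 24 gained 1. Ccne1, Gins3, Rfc2 and Rrm2 stayed above 0 in each of the 20, with edgeR, DESeq2 or limma-voom adjusted p from 0.000775 to 0.498. Leaving out each library in turn gave 1 to 1129 genes called higher and 0 to 243 lower, 0 to 10 members higher, 0 lower, and a median of the members of 0.26 to 0.40. Over all genes, calls higher and lower were 13 and 22 (RLE factors), 225 and 251 (upper quartile), 59 and 318 (total counts), 33 and 16 with no filter, 1586 and 883 with DESeq2, 1221 and 408 with a term for library set, 2 and 2 with the length trend removed, and 1311 and 857 in the libraries with more receptor reads. With a mean of at least 1 CPM as the filter 485 were lower. They were 0 and 0 with Nynrin CKO pairs summed (3022 at an unadjusted p under 0.05) and in the libraries with low Xist (4930). Members called higher numbered 10 with DESeq2, 9 with the set term, and 0 with RLE, upper-quartile or total counts, no filter (14 at an unadjusted p under 0.05), length trend removed, pairs summed or low Xist. With more receptor reads only, 4 members were lower. The median of the members was 0.056 with total counts. The cause of these shifts was not tested.

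Deviations of same-numbered libraries from their group means had correlations of 0.20, 0.21, -0.26 and 0.39. Control 4 correlated alike with Nynrin CKO 3 and 4 (0.38 and 0.39), which share its set of few receptor reads. These values therefore cannot show whether the replicate numbers pair the libraries. A replicate block called 0 genes in either direction and 0 members, with 5144 genes and 18 members, all higher, at an unadjusted p under 0.05. Of 8 libraries 4 correlated best with their own number. Every member had at least 292 counts in each library, and no interval for counting error alone is given.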
